A study of Mus musculus with 14 samples.

Results

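A set of 10 cytochrome P450 genes of the mouse kidney was followed after renal ischemia/reperfusion injury (IRI), in which blood flow to the kidney is interrupted and then restored. The 10 genes were Cyp2d9, Cyp2d26, Cyp2e1, Cyp2j5, Cyp4a10, Cyp4a12a, Cyp4a14, Cyp4b1, Cyp7b1 and Cyp1b1, out of 24411 gene symbols counted. They were picked by name, with their levels by day and by library name already known, so their own values are given as a description with no p-value. Counts of how many of them passed the test run on all genes stand beside the share of all genes that did. The symbols also held 89 other Cyp genes, of which 36 had enough counts to be tested and 53 had not.

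Whole-kidney RNA was sequenced from male C57/B6 mice of 8 weeks, at day 0 (4 libraries), day 1 (5 libraries) and day 3 (5 libraries). Neither a genotype nor a drug is labelled for any group, and the labels do not say whether the day 0 mice had sham surgery. They also do not say that the libraries of a day came from separate animals, so the p-values below measure only the spread between these libraries. In a bulk sample, fewer cells of a type and less RNA per cell cannot be told apart. Between 12485579 and 20476979 reads per library fell on genes. A second difference between the libraries lay in the number in the name of the deposited file. This number had 1 digit throughout day 0, for day 1 replicates 3, 4 and 5, and for day 3 replicates 4 and 5. The remaining libraries of days 1 and 3 carried 3 digits. What this format stands for is not given, so each of the 10 genes is described by day and, within days 1 and 3, by format. Because day 0 had no 3-digit library, the format and the day cannot be told apart for the 3-digit libraries when they are set against day 0. The kidney origin of the libraries was plain from Umod, the uromodulin gene of the thick ascending limb, which had 5769 CPM (the read count set against the TMM-scaled size of the library) at day 0, and from Slc34a1, the phosphate transporter of the proximal tubule, which had 4776 CPM. Replicate 4 of day 0 stood apart in Cyp2d9, and replicate 2 of day 3 stood apart in Cyp2d26 and Cyp4b1, so those genes are also given without that library.

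Cytochrome P450 enzymes are heme proteins that insert an oxygen atom into their substrate, and most of them sit in the endoplasmic reticulum, where cytochrome P450 reductase passes them electrons. In the kidney, the proximal tubule holds much of this activity. There the Cyp4a enzymes hydroxylate the end of fatty acids such as arachidonic acid, the Cyp2j enzymes form epoxides from it, and Cyp2 family members also oxidize drugs and steroids.

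The heme is held by a cysteine in a short loop that is shared by the whole family. The 30 coding bases around that cysteine are shown because they are the signature by which members of the family are known. The bases were taken from the GENCODE M21 transcripts of GRCm38, run 5' to 3', and have the cysteine codon in capitals.
Cyp4a10: ttctcaggaggagccaggaacTGCattggg
Cyp4a14: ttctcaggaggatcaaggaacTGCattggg
Cyp4a12a: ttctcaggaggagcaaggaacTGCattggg
Cyp4b1: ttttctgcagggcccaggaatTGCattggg
Cyp2j5: ttctcaatgggaaaaagagctTGTcttgga
Cyp2e1: ttttctgcaggaaagcgcgtgTGTgttgga
Cyp2d9: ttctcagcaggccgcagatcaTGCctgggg
Cyp2d26: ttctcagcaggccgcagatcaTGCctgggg
Cyp7b1: tttggactcggaacaagcaaaTGTccaggg
Cyp1b1: ttctcagtgggcaaacggaggTGCatcggt
Cyp2d9 and Cyp2d26 were identical over all 30 bases. Cyp4a10 and Cyp4a12a shared 29 of the 30, as did Cyp4a12a and Cyp4a14, whereas Cyp7b1 shared 14 with each of Cyp2d9, Cyp2d26, Cyp2e1 and Cyp1b1. The loop was split over 2 coding exons in all of these genes other than Cyp7b1 and Cyp1b1, where a single exon held it. Over the whole coding sequence, Cyp2d9 and Cyp2d26 shared 82.4% of aligned bases, Cyp4a10 and Cyp4a12a 80.6%, and Cyp4a12a and Cyp4a14 76.0%. The cysteine was codon 456 of Cyp4a10, codon 454 of Cyp4a14, codon 455 of Cyp4a12a and codon 447 of both Cyp2j5 and Cyp7b1.

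Of the 10 genes, 5 lie on chromosome 4 of GRCm38. Cyp2j5 occupies chr4:96628773-96664154 on the minus strand, in a run of Cyp2j genes. The other 4 lie close together, with Cyp4a12a at chr4:115299046-115332815 on the plus strand, Cyp4a14 at chr4:115486200-115496142 on the minus strand, Cyp4a10 at chr4:115518264-115533649 on the plus strand and Cyp4b1 at chr4:115624725-115647723 on the minus strand. Cyp2d9 (chr15:82433437-82456845, plus strand) and Cyp2d26 (chr15:82790101-82794294, minus strand) share chromosome 15. Cyp2e1 lies at chr7:140763739-140774987 on the plus strand, Cyp7b1 at chr3:18071950-18243338 on the minus strand and Cyp1b1 at chr17:79701537-79715061 on the minus strand.

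Near-identical copies limit some of the counts. Of all stretches of 50 bases in the transcripts of Cyp4a12a, 48.9% also occurred in Cyp4a12b, whose coding sequence was 98.5% identical. The share was 30.5% for Cyp4a10, mostly with Cyp4a32, which was 97.2% identical to it. It was 29.0% for Cyp2d9, spread over 11 genes of which Cyp2d12 shared most, 10.5% for Cyp2d26 and 10.3% for Cyp4b1. Reads of these genes that fit several places equally well were not in the deposited counts, so their levels are uncertain. The share was 4.76% for Cyp2e1, 0.245% for Cyp4a14 and 0.174% for Cyp2j5, and no such stretch of Cyp7b1 or Cyp1b1 occurred in another gene. Cyp2d9 also overlaps 4 other genes in this annotation, Gm46501, Gm49421, Gm49419 and Gm27622, and Cyp7b1 overlaps Gm23686.

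Per kilobase of exon, the day 0 kidney expressed the 10 genes over a wide range. Cyp4b1 stood first at day 0 with a level of 1644 ± 134 CPM per kilobase (SD, n = 4), ahead of Cyp2e1 with 974 ± 67.8 and Cyp2j5 with 827 ± 38.8. A middle group followed, with Cyp4a12a at 225 ± 43.4 CPM per kilobase, Cyp7b1 at 158 ± 30.8, Cyp4a10 at 130.4 ± 26.8, Cyp2d9 at 101 ± 47.9 and Cyp2d26 at 85.4 ± 2.89. Cyp4a14 at 4.13 ± 2.21 and Cyp1b1 at 3.04 ± 0.601 CPM per kilobase came last. Neighbours in this order that did not differ beyond their SDs were Cyp4a12a and Cyp7b1, Cyp7b1 and Cyp4a10, Cyp4a10 and Cyp2d9, Cyp2d9 and Cyp2d26, and Cyp4a14 and Cyp1b1. The order at day 3 was different, as Cyp4a14 then had 549 ± 415 CPM per kilobase (SD, n = 5), Cyp4a10 476 ± 161 and Cyp4b1 472 ± 277, values that lay within their SDs of each other.

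Together the 10 genes gave most of the P450 transcripts of these kidneys. Their summed level was 8963 to 9882 CPM at day 0, which was 76.8% to 80.6% of the sum over all 99 Cyp genes. At day 1 it was 4181 and 5398 CPM in the 3-digit libraries and 8125, 9138 and 12369 CPM in the 1-digit libraries. Day 3 levels were 3024 to 6455 CPM. All 5 libraries of day 3 lay below every day 0 library, as did replicates 1, 2 and 5 of day 1. Within the sum, Cyp4b1 took 38.0% to 41.7% at day 0 and Cyp4a10 and Cyp4a14 took 2.49% to 3.85% and 0.070% to 0.206%. In the 3-digit libraries of day 1, Cyp4a10 took 18.4% and 29.4% and Cyp4a14 took 10.4% and 14.7%. At day 3, Cyp4a14 took 53.7% in replicate 4, 36.7% in replicate 1, 27.6% in replicate 3, 20% in replicate 5 and 3.02% in replicate 2.

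**Figure D1:**
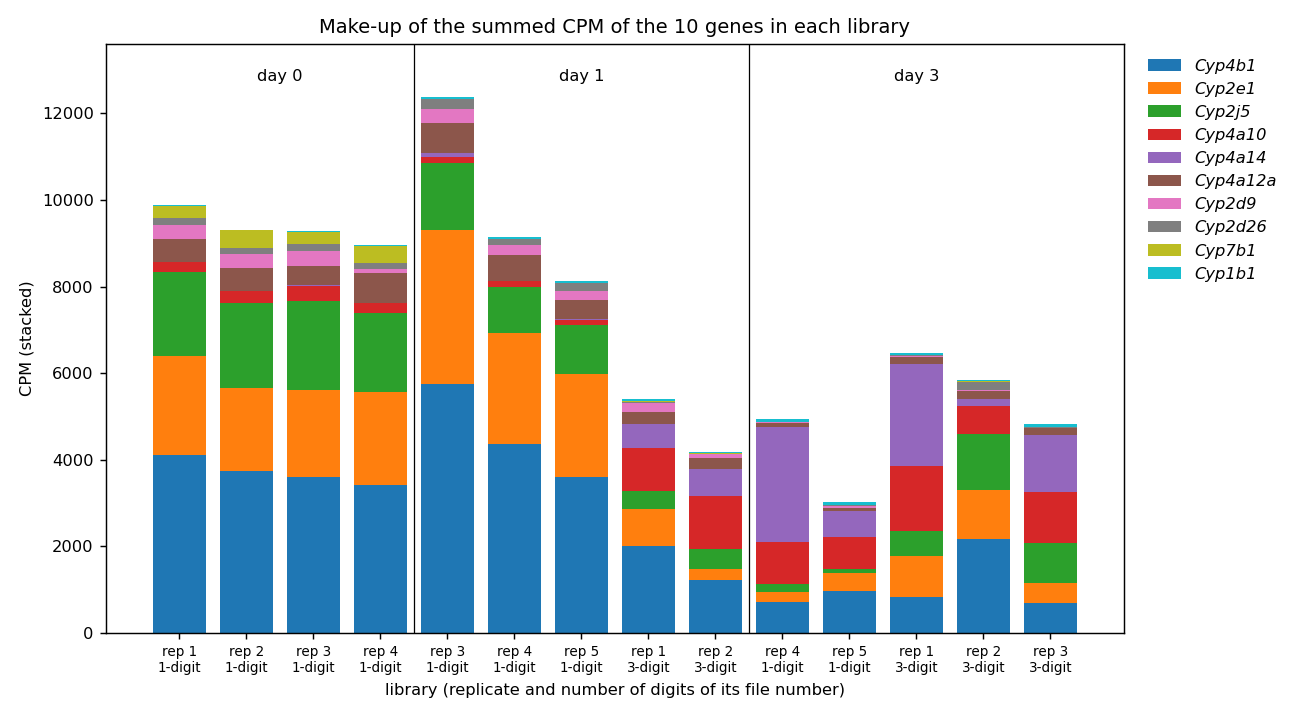
Stacked bars give the summed level (CPM, linear axis from 0) of the 10 genes in each of the 14 libraries, ordered by day and, within a day, by the number of digits in the file number, with 1 color per gene. The day 0 bars are alike, the 3-digit bars of day 1 and all day 3 bars are shorter, and Cyp4a10 with Cyp4a14 make up more of most of those shorter bars, least in replicate 2 of day 3.

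Cyp4a14, a fatty acid omega-hydroxylase, had the widest range among the 10 genes, as the ratio of its highest to its lowest library. At day 0 its level was 7.71, 6.53, 19.1 and 9.55 CPM. On day 1 it was 561 and 613 CPM in the 3-digit libraries and 81.6, 14.4 and 12.1 CPM in those with 1 digit. At day 3 it was 2372, 176 and 1328 CPM in the 3-digit libraries and 2654 and 604 CPM in the 1-digit libraries. Every day 3 library was above every day 0 library, whereas at day 1 the libraries of 14.4 and 12.1 CPM lay below the highest day 0 library. Set against day 0, this gave a log2 fold change of 4.58 ± 1.21 (SE) at day 1 and 7.05 ± 1.36 at day 3. With the 1-digit libraries only, it was 1.79 at day 1 and 7.27 at day 3. Without replicate 2 of day 1, the day 1 value was 3.96.

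Cyp4a10, the neighboring omega-hydroxylase gene, showed a like split by format at day 1. Its level was 246, 266, 357 and 231 CPM at day 0. Day 1 levels were 996 and 1228 CPM in the 3-digit libraries and 144, 137 and 117 CPM in the 1-digit libraries. The former pair lay above and the latter trio below every day 0 library, so the mean of day 1, 524 ± 543 CPM (SD, n = 5), describes neither. At day 3 the level was 1490.1, 642 and 1164 CPM in the 3-digit libraries and 975 and 743 CPM in the 1-digit libraries, and none of these overlapped day 0. Relative to day 0, its log2 fold change was 0.93 ± 0.63 (SE) at day 1 and 1.87 ± 0.66 at day 3. Its sign at day 1 depended on the format, with 2.02 from the 3-digit libraries and -1.02 from the 1-digit libraries, whereas at day 3 the values were 2.00 and 1.66. The day 1 value was 0.53 without replicate 1 of day 1 and 0.34 without replicate 2.

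Cyp4a12a, which encodes the main 20-HETE-forming omega-hydroxylase of the male mouse kidney, was lower at day 3, unlike Cyp4a10 and Cyp4a14 and like Cyp4b1. Its level was 512, 534, 444 and 693 CPM at day 0, and 269.7 and 261 CPM with 3 digits and 702, 583 and 456 CPM with 1 digit at day 1. On day 3 it was 162, 172 and 150.3 CPM in the 3-digit and 106 and 85.4 CPM in the 1-digit libraries. All day 3 libraries lay below all others, and the 1-digit libraries of day 1 lay in the range of day 0 or just above it. In log2 terms the difference from day 0 was -0.26 ± 0.30 (SE) at day 1 and -2.02 ± 0.30 at day 3. The day 1 value of Cyp4a12a was -1.04 with the 3-digit libraries and 0.12 with the 1-digit libraries. Its near copy Cyp4a12b was higher at day 3 than at day 0, by 1.62 on the log2 scale (edgeR quasi-likelihood test, adjusted p = 0.034), from 16.7 ± 3.80 to 51.3 ± 22.2 CPM (SD, n = 4 and 5). At day 1 its mean was 77.4 CPM with 3 digits and 16.9 CPM with 1 digit.

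Cyp4b1, a hydroxylase of shorter fatty acids and the most abundant of the 10 transcripts at day 0, had 4116, 3724, 3587 and 3405 CPM there. At day 1 the 3-digit libraries had 1993 and 1218 CPM and the 1-digit libraries 5747, 4351 and 3599 CPM. At day 3 the 3-digit libraries had 813, 2168 and 678 CPM and the 1-digit libraries 717 and 954 CPM. Day 3 did not overlap day 0. At day 1 the 3-digit libraries were below day 0, and the 1-digit libraries were within its range or above it. The fitted log2 fold change from day 0 was -0.13 ± 0.42 (SE) at day 1 and -1.80 ± 0.42 at day 3. Without replicate 2 of day 3, the latter was -2.23. The day 1 value was -1.20 with the 3-digit libraries and 0.33 with the 1-digit libraries.

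Cyp2j5, the main arachidonic acid epoxygenase gene of this tissue, had 1936, 1961, 2038 and 1818 CPM at day 0. At day 1 the 3-digit libraries had 419.9 and 474 CPM and the 1-digit libraries 1543, 1061 and 1135 CPM, all below day 0. At day 3 the order of the formats was the opposite, with 595, 1299.6 and 924 CPM in the 3-digit libraries and 179.8 and 91.5 CPM in the 1-digit libraries. Set against day 0, this gave a log2 fold change of -1.07 ± 0.59 (SE) at day 1 and -1.65 ± 0.60 at day 3. With the 1-digit libraries it was -0.60 at day 1 and -3.82 at day 3, and with the 3-digit libraries -2.11 and -1.04. Cyp2j5 was thus lower than at day 0 in each of the 10 libraries after injury, while the difference between day 3 and day 1, -0.58 ± 0.56 (SE) on the log2 scale, was -3.21 with the 1-digit libraries and 1.07 with the 3-digit libraries.

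**Figure D2:**
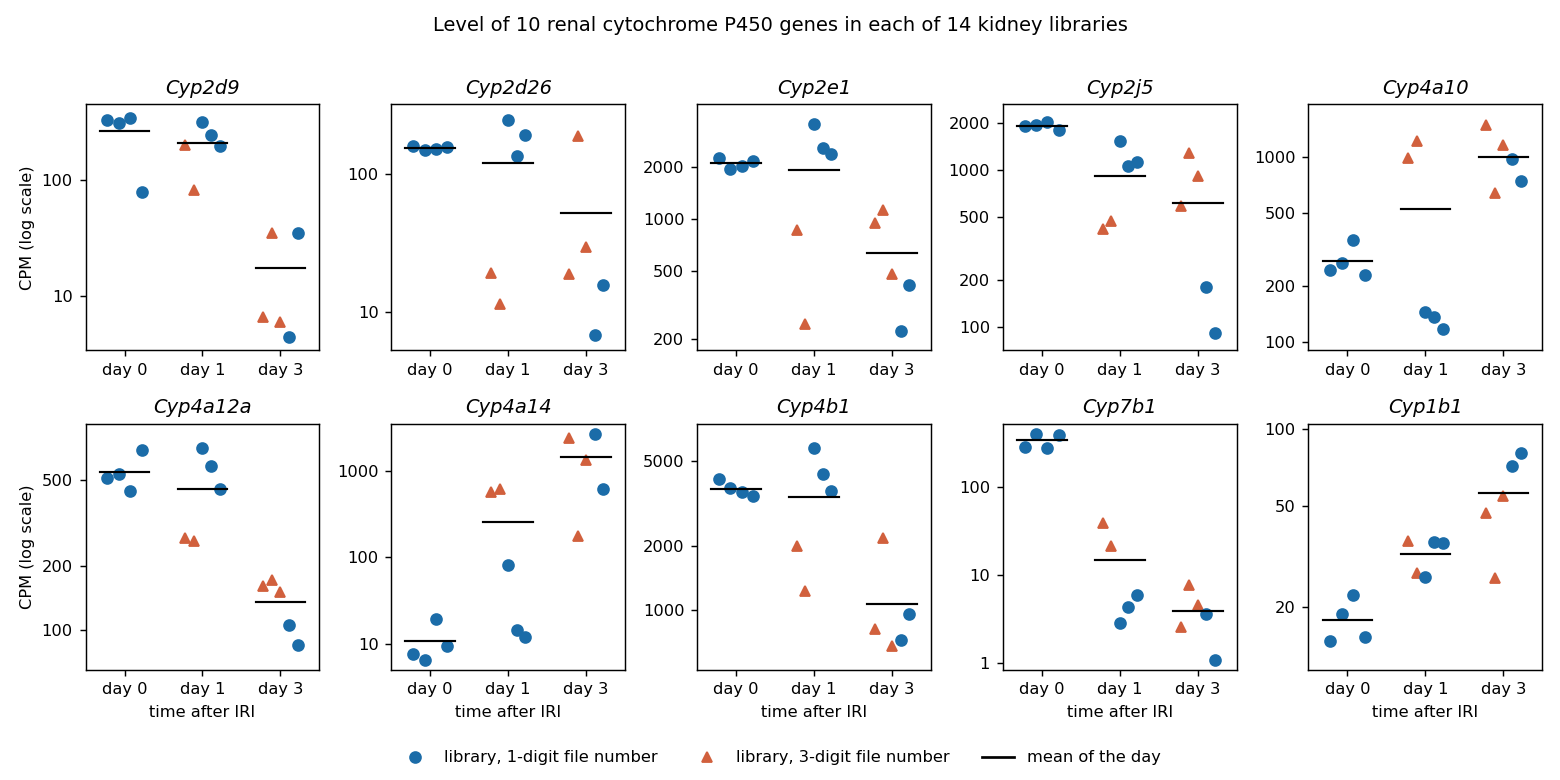
Each panel plots the level of 1 gene (CPM, log axis) in each library by day, with circles for libraries with a 1-digit and triangles for libraries with a 3-digit file number, and a black line at the mean of the day. Cyp7b1 lies below its day 0 range in all 10 libraries after injury, Cyp1b1 lies above it, and Cyp4a10 and Cyp4a14 are high at day 1 in the 3-digit libraries.

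Cyp2e1, which oxidizes ethanol, acetone and small toxicants, had 2272, 1938, 2032 and 2164 CPM at day 0. At day 1 it had 862 and 244 CPM in the 3-digit libraries and 3559, 2572 and 2377 CPM in the 1-digit libraries, below and above the whole day 0 range. Day 3 levels were 948, 1120.5 and 476 CPM in the 3-digit libraries and 223 and 414 CPM in the 1-digit libraries, all below day 0. Relative to day 0, its log2 fold change was -0.13 ± 0.58 (SE) at day 1 and -1.72 ± 0.59 at day 3. The day 1 value came to -1.92 with the 3-digit libraries and 0.47 with the 1-digit libraries.

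Cyp2d26, a Cyp2d gene of the liver and kidney, had the tightest day 0 values of the 10 genes, 159, 147, 150.2 and 156 CPM. On day 1 it had 19.1 and 11.4 CPM in the 3-digit libraries and 244, 133 and 189 CPM in the 1-digit libraries. At day 3 it had 18.9, 187 and 29.7 CPM in the 3-digit libraries and 6.86 and 15.6 CPM in the 1-digit libraries. Replicate 2 of day 3 was thus above all day 0 libraries while the other day 3 libraries were below them. In log2 terms the difference from day 0 was -0.36 ± 0.90 (SE) at day 1 and -1.57 ± 0.91 at day 3, and the latter was -3.10 without replicate 2 of day 3. With the 3-digit libraries the difference of Cyp2d26 was -3.33 at day 1 and -0.96 at day 3, and with the 1-digit libraries 0.34 and -3.75. The SD of its log2 level was 0.05 at day 0, 2.03 at day 1 and 1.77 at day 3, beside medians over all genes tested of 0.14, 0.38 and 0.38.

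Cyp2d9, a male-predominant steroid 16-alpha-hydroxylase gene, had 331, 315, 349.6 and 78.7 CPM at day 0. Day 1 levels were 201 and 82.6 CPM in the 3-digit libraries and 319, 246 and 198 CPM in the 1-digit libraries. On day 3 it had 6.57, 35.0 and 5.89 CPM in the 3-digit libraries and 4.37 and 35.2 CPM in the 1-digit libraries. Day 3 lay below all libraries of days 0 and 1 in both formats, and its log2 fold change from day 0 was -0.36 ± 0.62 (SE) at day 1 and -3.95 ± 0.68 at day 3. Without replicate 4 of day 0, the day 1 value was -0.67. In that library Cyp2d12, a near copy with 92.1% identical coding bases, had 49.6 CPM against 13.95 to 17.5 CPM in the other day 0 libraries.

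Cyp7b1, the oxysterol 7-alpha-hydroxylase, stood lowest against day 0 of the 10 genes at both days. It had 287, 405, 281 and 393 CPM at day 0. At day 1 it had 39.8 and 21.6 CPM in the 3-digit libraries and 2.86, 4.40 and 6.03 CPM in the 1-digit libraries. Day 3 levels were 2.60, 7.77 and 4.65 CPM in the 3-digit libraries and 3.63 and 1.1 CPM in the 1-digit libraries. The lowest day 0 library had 4443 reads and the highest library after injury had 738. The fitted log2 fold change from day 0 was -4.51 ± 0.70 (SE) at day 1, a level 22.7 times lower, and -6.42 ± 0.77 at day 3, a level 85.6 times lower. The day 1 value was -6.25 with the 1-digit libraries, -3.47 with the 3-digit libraries and -5.30 without replicate 1 of day 1. Unlike Cyp2e1 and Cyp4b1, Cyp7b1 was at day 1 lower where the file number had 1 digit.

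Cyp1b1, which oxidizes estrogens and aryl hydrocarbons and is known from mesenchymal and vascular cells, was higher after injury. It had 14.7, 18.8, 22.2 and 15.2 CPM at day 0. On day 1 it had 36.3 and 27.3 CPM in the 3-digit and 26.4, 35.9 and 35.8 CPM in the 1-digit libraries. At day 3 it had 46.9, 26.1 and 54.7 CPM in the 3-digit and 72.1 and 80.9 CPM in the 1-digit libraries. All 10 libraries after injury were above all day 0 libraries, and its log2 fold change from day 0 was 0.87 ± 0.26 (SE) at day 1 and 1.66 ± 0.27 at day 3.

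Counted by the same call as the rest of the genome, an adjusted p under 0.05 in the edgeR quasi-likelihood test, 2 of the 10 genes were higher and 1 was lower at day 1 than at day 0. Over the 14300 genes tested, 42.1% were called there, 23.3% higher and 18.7% lower. At day 3 against day 0, 3 of the 10 genes were higher and 6 lower, where 33.3% of all genes were called, 19.5% higher and 13.8% lower. At day 3 against day 1, 1 was higher and 3 lower, where 15.9% of all genes were called, 8.52% higher and 7.39% lower. Groups that did not overlap numbered 1 higher and 2 lower of the 10 genes at day 1 against day 0, where 21.5% of all genes tested lay entirely higher and 20.5% entirely lower. For day 3 against day 0 the numbers were 3 and 6, beside 16.9% and 16.5% of all genes, and for day 3 against day 1 they were 0 and 2, beside 4.14% and 3.47%. Since the 10 genes were picked with these contrasts known, nothing is read from these counts.

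**Figure D3:**
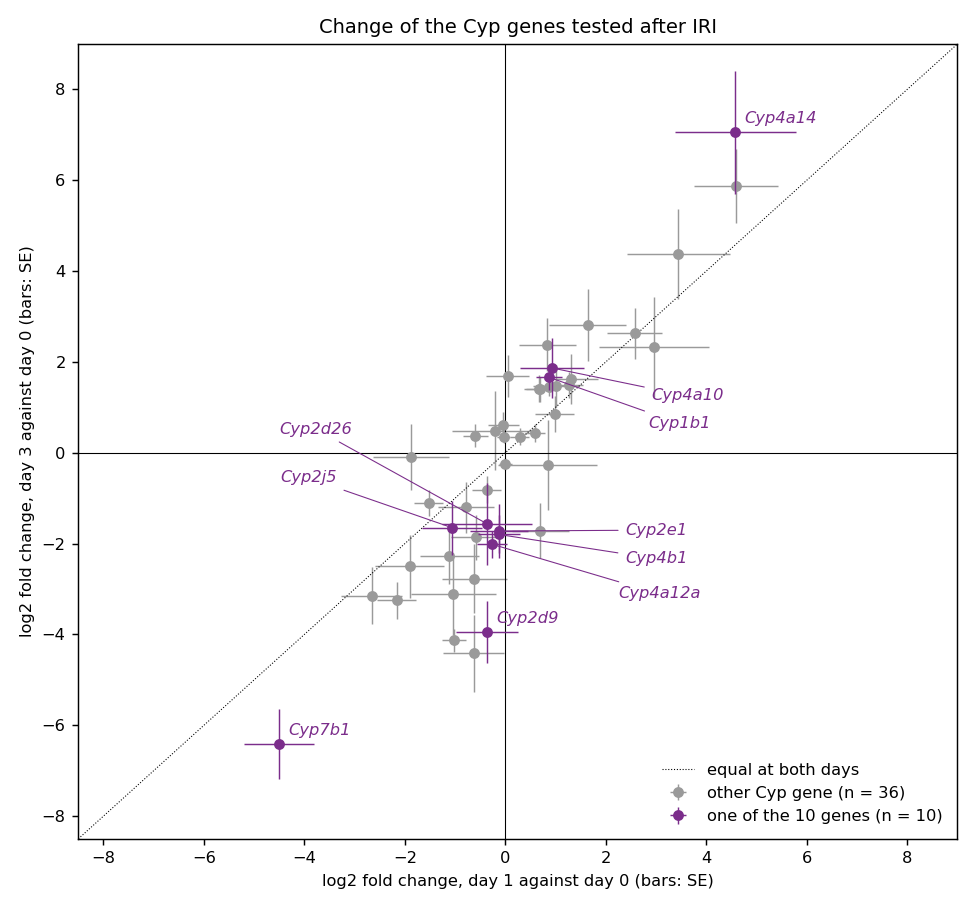
Points give the log2 fold change against day 0 at day 1 (horizontal) and at day 3 (vertical) of the 46 Cyp genes tested, the 10 genes in purple and 36 other Cyp genes in gray, with SE bars and a dotted line where both days are equal. Cyp4a14 lies at the upper right and Cyp7b1 at the lower left, and Cyp2e1, Cyp4b1, Cyp4a12a and Cyp2d9 lie near 0 at day 1 and below it at day 3.

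By file number format, 4 of the 10 genes were entirely lower in the 3-digit libraries of day 1 and entirely higher in those of day 3, as were 4.45% of all genes tested. The 10 genes were chosen with these contrasts known, so nothing is read from that count. At day 1, 5 genes had every 3-digit library below every 1-digit library: Cyp2d26 with a log2 difference (3-digit minus 1-digit) of -3.63 ± 0.82 (SE), Cyp2e1 with -2.36 ± 0.49, Cyp4b1 with -1.51 ± 0.43, Cyp2j5 with -1.48 ± 0.33 and Cyp4a12a with -1.13 ± 0.21. In contrast, 3 genes had every 3-digit library above, namely Cyp4a14 with 4.03 ± 0.99, Cyp4a10 with 3.07 ± 0.30 and Cyp7b1 with 2.80 ± 0.45. Without replicate 3 of day 1 the difference of Cyp4a14 was 5.46. Over all genes tested, 29.4% lay entirely lower and 31.2% entirely higher in this contrast of 2 against 3 libraries. At day 3, Cyp2d26, Cyp2e1, Cyp2j5 and Cyp4a12a were instead entirely higher in the 3-digit libraries, with log2 differences of 2.80 ± 0.80, 1.41 ± 0.47, 2.79 ± 0.35 and 0.75 ± 0.21. Without replicate 2 of day 3 that of Cyp2d26 was 1.12, and without replicate 5 it was 3.48. The day 1 difference of Cyp2e1 was -3.55 without replicate 1 of day 1 and -1.72 without replicate 2. Cyp1b1 was entirely lower with 3 digits at day 3, with -0.84 ± 0.27, and the other 5 genes overlapped, beside 21.5% of all genes entirely higher and 20% entirely lower. By the adjusted p, 3 of the 10 genes were called higher and 5 lower at day 1, where 35.0% of all genes were called, 18.6% higher and 16.4% lower. At day 3, 3 were called higher and 1 lower, where 18.5% were called, 10.3% higher and 8.22% lower.

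**Figure D4:**
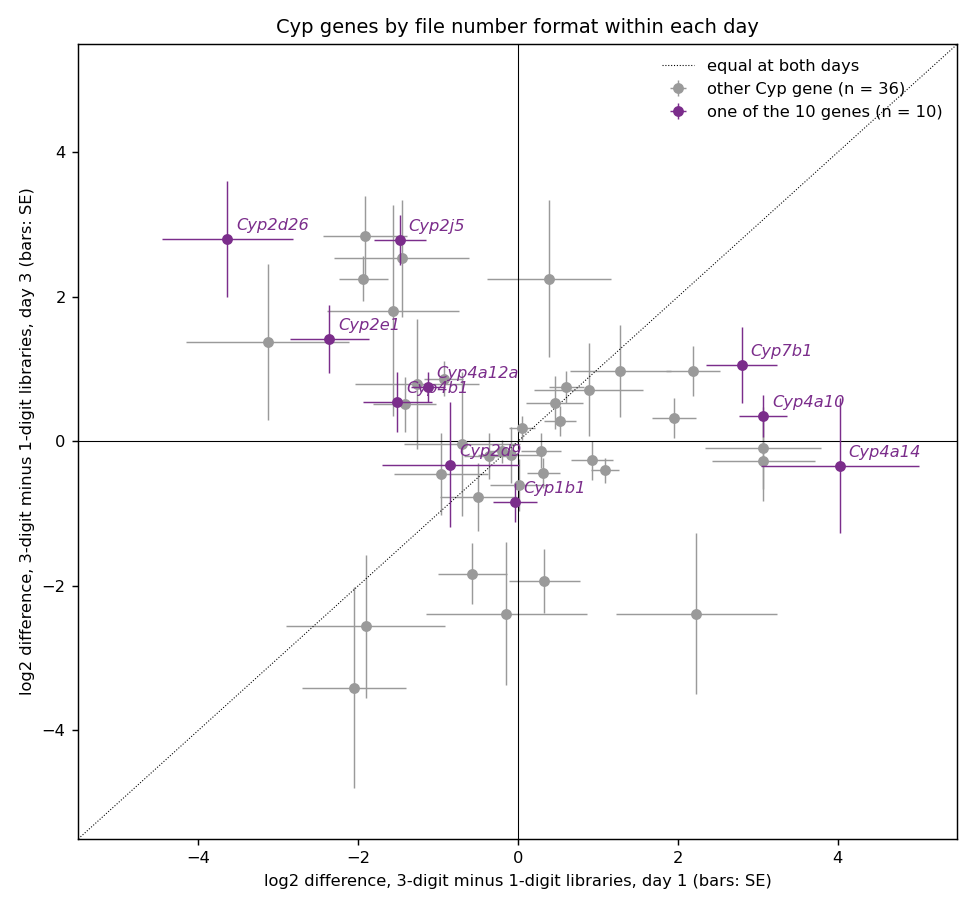
Points give the log2 difference between 3-digit and 1-digit libraries within day 1 (horizontal) and within day 3 (vertical) of the 46 Cyp genes tested, the 10 genes in purple and 36 others in gray, with SE bars. Cyp2d26, Cyp2e1, Cyp2j5 and Cyp4a12a lie in the upper left, negative at day 1 and positive at day 3, and Cyp4a10 and Cyp4a14 lie far right of 0 but near it vertically.

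Proximal tubule markers also differed between the formats. Of all genes tested, 18.6% were called higher and 16.4% lower with 3 digits at day 1, and 10.3% higher and 8.22% lower at day 3. Of 8 markers of segments S1 and S2, 5 were lower and none was higher in the day 1 libraries with 3 digits (median log2 difference -1.78, beside 0.03 over all genes), and 2 were called without replicate 2 of day 1. In those of day 3, 3 were higher and none was lower (median 1.1, beside 0.01 over all genes), and none was called without replicate 5 of day 3. Their summed level was 10832 to 12468 CPM at day 0, 2704 to 12542 CPM at day 1 and 2167 to 10523 CPM at day 3.

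Set against the mean log2 level of those markers in each library, the 4 genes had the following levels. At day 1 Cyp2d26 stood at -1.97 ± 0.19 (SD, n = 3) with 1 digit and -4.07 ± 0.23 (SD, n = 2) with 3 digits, and Cyp2e1 at 1.96 ± 0.15 and 0.88 ± 0.99. Cyp2j5 stood at 0.78 ± 0.11 and 0.84 ± 0.42 on this scale, and Cyp4a12a at -0.33 ± 0.28 and 0.09 ± 0.26. For Cyp2e1, Cyp2j5 and Cyp4a12a these values lay within their SDs of each other. At day 3 Cyp2j5 stood at -0.96 ± 0.26 (SD, n = 2) with 1 digit and 0.74 ± 0.30 (SD, n = 3) with 3 digits, Cyp2d26 at -4.57 ± 1.26 and -3.50 ± 1.18, Cyp2e1 at 0.28 ± 1.06 and 0.57 ± 0.56, and Cyp4a12a at -1.39 ± 0.21 and -1.73 ± 0.50. By day, Cyp4b1 stood at 2.15 ± 0.08 (SD, n = 4) at day 0, 2.64 ± 0.19 (SD, n = 5) at day 1 and 1.28 ± 0.60 at day 3, and Cyp7b1 at -1.31 ± 0.32, -5.65 ± 2.43 and -6.85 ± 0.44.

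Of 6 markers of segment S3, 5 were lower than at day 0 both at day 1 (median log2 fold change -2.48) and at day 3 (median -3.73). Over all genes tested, 18.7% were called lower at day 1 and 13.8% at day 3, with medians of 0.01 and 0.05. By format, 1 of the 6 S3 markers was higher and 1 lower with 3 digits at day 1. At day 3, 5 were higher, and none was called without replicate 5 of day 3. The part of the tubule markers in the values of the 10 genes was not tested.

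Promoters are shown for Cyp2d26, Cyp2e1 and Cyp2j5, whose format differences had opposite signs at days 1 and 3, and for Cyp1b1, whose formats overlapped at day 1. The sequences are those of RefSeq for GRCm38.p6, from 250 bases before the start site to 50 after it, on the strand of the gene. They lie at chr15:82794196-82794495 (minus strand) for Cyp2d26, chr7:140763569-140763868 (plus strand) for Cyp2e1, chr4:96664070-96664369 (minus strand) for Cyp2j5 and chr17:79715012-79715311 (minus strand) for Cyp1b1. Capitals mark letters found on either strand for GTTAAT (an arm of the HNF1 site), TGTTCT (an arm of the steroid receptor site) and GCGTG (the core bound by the aryl hydrocarbon receptor, AHR), and on the strand of the gene for TATAAA.
Cyp2d26: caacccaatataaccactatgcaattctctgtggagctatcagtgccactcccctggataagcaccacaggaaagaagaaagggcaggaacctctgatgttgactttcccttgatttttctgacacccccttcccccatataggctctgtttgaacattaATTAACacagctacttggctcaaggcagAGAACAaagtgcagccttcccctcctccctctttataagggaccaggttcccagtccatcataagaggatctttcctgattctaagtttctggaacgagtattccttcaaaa
Cyp2e1: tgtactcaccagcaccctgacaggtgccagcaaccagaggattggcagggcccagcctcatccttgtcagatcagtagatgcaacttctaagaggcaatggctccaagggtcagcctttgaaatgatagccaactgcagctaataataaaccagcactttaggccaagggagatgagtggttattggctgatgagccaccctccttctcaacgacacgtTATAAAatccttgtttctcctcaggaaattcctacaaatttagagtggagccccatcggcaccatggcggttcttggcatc
Cyp2j5: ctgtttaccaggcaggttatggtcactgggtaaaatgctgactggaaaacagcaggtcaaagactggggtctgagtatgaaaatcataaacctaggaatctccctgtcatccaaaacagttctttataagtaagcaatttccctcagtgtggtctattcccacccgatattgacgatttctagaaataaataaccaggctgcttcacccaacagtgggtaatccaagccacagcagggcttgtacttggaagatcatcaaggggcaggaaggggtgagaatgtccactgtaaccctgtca
Cyp1b1: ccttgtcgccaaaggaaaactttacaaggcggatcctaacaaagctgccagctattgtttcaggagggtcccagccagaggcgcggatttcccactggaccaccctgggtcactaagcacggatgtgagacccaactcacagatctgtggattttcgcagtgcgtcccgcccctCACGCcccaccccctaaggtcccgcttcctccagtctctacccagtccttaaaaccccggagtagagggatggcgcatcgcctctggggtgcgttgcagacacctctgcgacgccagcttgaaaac
The Cyp2d26 promoter held GTTAAT at -90 to -85 and TGTTCT at -62 to -57 from the start site, both on the opposite strand. The Cyp2e1 promoter held TATAAA at -31 to -26, and the Cyp1b1 promoter held GCGTG at -76 to -72 on the opposite strand. Of 32851 promoters of this length, 7.10% held GTTAAT, 19% TGTTCT, 32.4% GCGTG and 8.32% TATAAA. None of these letters was found in the Cyp2j5 promoter. The Cyp4b1 promoter, not shown, held TGTTCT at -248 to -243. CAAAGTCCA, a form of the HNF4 site that either strand of 0.475% of promoters held, was in none of the 6 promoters found for the 10 genes. The table had none for Cyp4a10, Cyp4a12a, Cyp4a14 and Cyp7b1. A match is a description of the letters and not of binding.

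Among the 36 other Cyp genes tested, 7 were higher and 5 lower at day 1 than at day 0, and 12 were higher and 12 lower at day 3. The called share was thus 33.3% at day 1, beside 42.1% of all genes, and 66.7% at day 3, beside 33.3% of all genes. At day 3 against day 1, 3 were higher and 3 lower, or 16.7% beside 15.9%. The median log2 fold change of these 36 genes was 0.02 at day 1 and 0.37 at day 3, beside 0.01 and 0.05 over all genes tested. The other 53 Cyp genes were at most 0.393 CPM on average, and 17 of them had no count in any library. None of the 6 steroid hormone synthesis genes and 1 of the 15 Cyp2c genes had enough counts to test.

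The relatives of Cyp4a10 and Cyp4a14 were counted first. Of 14 other Cyp4a and Cyp4f genes, 8 were tested, 1 was higher at day 1, and 6 were higher and 1 lower at day 3. Cyp4a31 had 100.4 ± 12.6 CPM at day 0 (SD, n = 4), 104 ± 76.8 at day 1 and 324 ± 103 at day 3 (SD, n = 5), a log2 fold change at day 3 of 1.69 (edgeR adjusted p = 0.012). At day 1 its mean was 186 CPM with 3 digits and 48.3 CPM with 1 digit, a log2 difference of 1.95 (edgeR adjusted p = 0.00042). Cyp4a32 had 0.559 ± 0.217, 1.72 ± 1.77 and 3.97 ± 2.22 CPM, a log2 fold change of 2.82 at day 3 (edgeR adjusted p = 0.015). In the unstranded counts this sign was not kept, at -0.25 (edgeR adjusted p = 0.43), so its direction is uncertain. Cyp4f18, known from neutrophils, had 2 reads in all of day 0, 78 in day 1 and 195 in day 3, a ratio of 30.6 with a 95% counting interval of 8.18 to 257 at day 1 and of 75.6 (20.6 to 629) at day 3.

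The relatives of Cyp2j5 and Cyp2d9 differed in both directions. Of 6 other Cyp2j genes, 5 were tested. At day 1, Cyp2j11 was lower and Cyp2j8, at a mean of 0.166 CPM at day 0 and 1.33 CPM at day 1, was higher by 2.96 on the log2 scale (edgeR adjusted p = 0.042). At day 3 only Cyp2j11 was called, from 286 ± 30.5 CPM at day 0 to 50.3 ± 54.3 CPM, a log2 fold change of -2.50 (edgeR adjusted p = 0.015), or -3.36 without replicate 2 of day 3. Cyp2j13, the most abundant Cyp gene outside the 10 at day 0, had 581 ± 39.2, 337 ± 209 and 253 ± 183 CPM, and its log2 fold changes of -0.79 and -1.20 did not pass (edgeR adjusted p = 0.27 and 0.11). Of 7 other Cyp2d genes, 4 were tested. Cyp2d22 was higher at day 1, by 0.59 on the log2 scale (edgeR adjusted p = 0.026), and 3 were lower at day 3, with Cyp2d12 falling by 3.11 on the log2 scale (edgeR adjusted p = 0.018). Without replicate 2 of day 3 the value of Cyp2d12 was -4.49, and without replicate 4 of day 0 it was -2.47 and no longer passed. The test of the format contrast of day 3 minus that of day 1, chosen after the data were seen, called 12 of the 36 genes, where 17.6% of all genes were called. It gave a log2 difference of 4.76 for Cyp2j11 (edgeR adjusted p = 0.0019) and 4.18 for Cyp2j13 (edgeR adjusted p = 0.00039), the same direction as in Cyp2j5.

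Other branches of the family moved in both directions. Cyp51, the lanosterol demethylase of cholesterol synthesis, fell from 346 ± 46.9 CPM at day 0 to 77.2 ± 36.4 at day 1 and 36.4 ± 20.3 at day 3, with log2 fold changes of -2.17 and -3.25 (edgeR adjusted p = 0.000869 and 0.000108). Its day 1 mean was 38.6 CPM with 3 digits and 103 CPM with 1 digit. Cyp2a4, a steroid hydroxylase gene, fell from 438 ± 79.4 to 216 ± 56.6 and 25 ± 6.95 CPM, by 1.02 and 4.13 on the log2 scale. Cyp27b1, the vitamin D 1-alpha-hydroxylase, had 4.68 ± 2.44, 8.35 ± 8.36 and 24.4 ± 9.91 CPM and was higher at day 3 (log2 fold change 2.38, edgeR adjusted p = 0.00775). Cyp3a13 and Cyp2s1 were higher at both days, with log2 fold changes of 2.57 and 1.26 at day 1 and 2.63 and 1.48 at day 3. Without replicate 5 of day 3, the day 3 value of Cyp3a13 was 1.94. Of 7 tested genes of the other Cyp2 subfamilies, 2 were higher and 2 lower at day 1, and 2 were higher and 4 lower at day 3.

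The electron donors of the P450 enzymes were counted in the same fit. Por, the reductase, had 435 ± 27.4, 519 ± 120.3 and 394 ± 74.1 CPM at days 0, 1 and 3, and its log2 fold changes of 0.26 and -0.14 did not pass (edgeR adjusted p = 0.27 and 0.56). Cyb5b, a cytochrome b5, was lower at both days, by 1.07 and 0.75 on the log2 scale, and Cyb5a was lower at day 3, by 0.69. Cyb5r3, which reduces cytochrome b5, was higher by 0.62 and 0.75. Of 2 donors of mitochondrial P450 tested, none was called at day 1 and Fdx1 was lower at day 3, by 0.44. Neither Ephx1 nor Ephx2, whose epoxide hydrolases act on the products of epoxygenases such as Cyp2j5, was called at either day against day 0, at edgeR adjusted p values of 0.50 and 0.35 at day 1 and 0.29 and 0.24 at day 3. At day 1 Ephx1 had a mean of 51.4 CPM with 3 digits and 23.4 CPM with 1 digit (edgeR adjusted p = 0.027). At day 3 these means were 96.3 and 31.6 CPM (edgeR adjusted p = 0.016). No epoxide hydrolase was called by format at day 1 without replicate 2 of day 1, or at day 3 without replicate 3 of day 3.

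Lists of genes that share known regulators with some of the 10 genes were counted in the same fit, in which 42.1% of all genes were called at day 1 and 33.3% at day 3, and by format 35.0% at day 1 and 18.5% at day 3. Of 16 targets of PPARalpha, the fatty acid receptor that also controls Cyp4a10 and Cyp4a14, 6 were higher and 1 lower at day 1 (median log2 fold change 0.52), and 10 were higher and 1 lower at day 3 (median 1.32). By format, 6 were higher and none lower in the day 1 libraries with 3 digits, and 2 were higher and 5 lower in those of day 3. That last total of 7 ran from 1 (without replicate 3 or 5 of day 3) to 11 (without replicate 1 of day 3) when single libraries were left out. Of 6 androgen-dependent kidney genes, 1 was lower at day 1 and 4 were lower at day 3 (medians -0.54 and -2.43), with Kap falling by 2.40 on the log2 scale at day 3. By format, 3 of these 6 were lower and none higher with 3 digits at day 1 (median log2 difference -1.26), or 1 without replicate 1 of day 1. At day 3, 2 were higher and none lower with 3 digits, a count that was 1 when replicate 5 of day 3 was left out and 4 when replicate 1 was. Of 3 tested AHR target genes, 1 was higher and 1 lower at each day. Tiparp was higher at day 1, by 1.39, with a mean of 146 CPM where the file number had 1 digit and 33.1 CPM where it had 3, beside 38.4 CPM at day 0. Nqo1 was higher at day 3, by 1.91, and Cyp1a1 was lower at both days. At day 1 Nqo1 differed by format the other way, with means of 42.3 CPM with 1 digit and 225 CPM with 3, beside 46.2 CPM at day 0. Of 9 tested regulators of P450 genes, 2 were lower at day 1, with Hnf4a falling by 1.02, and 2 were higher at day 3, with Ppara higher by 1.19.

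Markers of other cells that could bring P450 transcripts had the following levels, and their counts stand beside the same shares of all genes called. Of 9 hepatocyte markers, 4 were tested, with 0 higher and 1 lower at day 1 and 1 higher and 1 lower at day 3, and their summed level was 140.2 to 326 CPM at day 0, 142 to 271 at day 1 and 68.4 to 332 at day 3. Serpina3k and Tat had no read at day 0 and F2 had none at day 1. By format, 1 was higher and 2 lower with 3 digits at day 1, among them Ttr, a carrier of thyroid hormone, with a log2 difference of -2.11 ± 0.56 (SE), and 1 was lower at day 3. Without replicate 2 of day 1 the day 1 count was 1. Of 8 fibroblast and pericyte markers, 2 were higher at day 1 and 6 at day 3, with none lower, and their summed level was 128 to 136 CPM at day 0, 146 to 459 at day 1 and 533 to 1175 at day 3. By format, 4 of these 8 were higher with 3 digits at day 1 (344 to 459 CPM against 146 to 197 CPM), where Cyp1b1 overlapped. At day 3, 2 were lower with 3 digits (median -0.02), or none without replicate 5 of day 3, where Cyp1b1 was entirely lower. Of 6 adrenal cortex markers, 4 were tested, with 3 higher at day 1 and 2 at day 3, and the summed level was 18.0 to 19.7, 30.7 to 48.6 and 27 to 81.9 CPM, while Nr5a1 had no read at days 1 and 3. Of 6 adipocyte markers, 3 were tested and none was called against day 0, at 57.8 to 154, 81.4 to 179 and 44.0 to 241 CPM. Of 7 macrophage markers, 2 were higher and 1 lower at day 1 and 3 higher and 1 lower at day 3. By format, none of the 7 was called at day 1, or 3 when replicate 1 or 2 of day 3 was left out. At day 3, 4 were higher and 1 lower with 3 digits, a total that was 3 without replicate 2 of day 3 and 0 without replicate 5. Of 5 endothelial markers, 1 was higher and 1 lower at day 1 and none was called at day 3. By format, 1 was higher and 1 lower with 3 digits at day 1, a total that was 1 without replicate 2 of day 1 and 3 without replicate 1. At day 3, 3 endothelial markers were lower with 3 digits, or none without replicate 5 of day 3. Of 5 smooth muscle markers, 2 were higher at each day. With 3 digits all 5 were higher at day 1, or 2 without replicate 2 of day 1, and 2 were lower at day 3. Of the adrenal cortex and adipocyte markers at most 2 were called by format at either day, and each of these counts was 0 without at least 1 library of day 1 or day 3. Of 5 urothelial markers, 1 was lower at day 3, and of 6 collecting duct and distal tubule markers, 3 were lower at day 1 and 4 at day 3. With 3 digits, 2 of the urothelial markers were higher at day 1 and none was called at day 3. Of the collecting duct and distal tubule markers, 1 was lower with 3 digits at day 1, a count of 0 to 2 with single libraries left out. At day 3, 2 of them were higher with 3 digits, or 1 without replicate 5 of day 3 and 3 without replicate 1. All 6 tubular injury markers were higher at day 1 and 5 were higher at day 3, among them Lcn2, from 2.24 ± 0.696 to 1688 ± 833 and 1777 ± 1383 CPM. Their summed level at day 1 was 31235 to 37005 CPM with 3 digits and 8448 to 16289 CPM with 1 digit. At day 3 it was 6605 to 33353 CPM with 3 digits and 36640 to 44391 CPM with 1 digit. Of these 6 markers, 2 were called higher and none lower with 3 digits at day 1, and 1 was called lower and none higher at day 3. The part of these cells in the values of the 10 genes was not tested.

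The genes outside the family whose log2 levels were most like those of the 10 genes over the 14 libraries were found among 13286 genes. Pearson's r is given as a description, since all libraries share the days and the formats. Cyp2j5 was most like Cdh16, the kidney cadherin (r = 0.99), and Cyp7b1 most like Slc22a19, a transporter of segment S3 (r = 0.99). Cyp2d26 was most like the phosphate transporters Slc34a3 and Slc34a1 (both r = 0.97), Cyp4a12a like Slc12a3 (r = 0.97), Cyp2e1 like Smpdl3a (r = 0.98) and Cyp4b1 like Plbd2 (r = 0.98). Cyp4a14 was most like Acsf2, a gene of fatty acid activation (r = 0.96), and Cyp4a10 like Rasl12 (r = 0.96). Cyp2d9 was most like C4a (r = 0.97) and Cyp1b1 like C1qtnf6 (r = 0.96). Among the 10 genes themselves, the lowest value was that of Cyp4b1 with Cyp4a14 (r = -0.89).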

How the data were processed

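Kidney RNA was extracted with TRIzol, made into Illumina TruSeq libraries and sequenced. Per the labels, the authors trimmed the reads with Trimmomatic, aligned them to mm10 with STAR and deposited a table of read counts per gene for each library. Their versions, and which annotation was counted, are not given in the sources used here. Of 3 count columns, the strand-specific column 4 was used, since it held 98.5% to 98.7% of the stranded reads, and 4 entries that name no gene (29.0% to 38.3% of reads) were left out. Intervals of counts cover counting error only.

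Genes were fitted with edgeR 4.0.16 (quasi-likelihood, TMM, R 4.3.3) on all 14 libraries, as 3 days or as 5 groups of day and format, after its filter on low counts (14300 genes), with Benjamini-Hochberg adjustment over all genes and a threshold of 0.05. CPM used the effective library size and log2 levels a prior count of 2. The SE of a log2 fold change was its size divided by the square root of the F statistic of the same fit. It is therefore not independent of the test, and for the 10 genes it is given as a description only. Fits were tested on simulated data with known changes. Alternatives were DESeq2 1.42.0, other scalings, filters, prior counts and count columns, fold thresholds, fits on the groups compared, single formats, a replicate block and each library left out. The members and lists were chosen with earlier results of these data known. Named were the 10 genes, the most changed other Cyp genes per contrast (4 each way against day 0, otherwise 3) with a mean of at least 1 CPM, the most abundant other Cyp genes, the 2 most abundant genes of each list, all electron donors and epoxide hydrolases, and the 3 genes most like each member. Other genes named were picked after their values were seen. Sequences are from GENCODE M21 and RefSeq (GRCm38).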

Additional observations from a re-analysis of the deposited data

Results flagged for a closer look

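Of 81 groups of values of the 10 genes and the other Cyp genes named, 11 held a library far from the rest of its group by Dixon's criterion. No chance rate applies to this count, since the genes were picked with their values known and share the same libraries. Days 1 and 3 also mix both formats. Among the 10 genes, Cyp2d9 had 78.7 CPM in replicate 4 of day 0 while the other day 0 libraries had 315.4 to 349.6. Cyp2d26 had 187 CPM in replicate 2 of day 3, beside 6.86 to 29.7 in the others, and Cyp4b1 had 2170 CPM there, beside 677.7 to 953.6. The same replicate of day 3 stood apart in Cyp2c44 (13.3 CPM, others 0.22 to 3.61), Cyp2d12 (9.46 CPM, others 0.538 to 2.28) and Cyp2s1 (19.7 CPM, others 36.2 to 42.4). Replicate 4 of day 0 also stood apart in Cyp2d12, at 49.6 CPM beside 13.95 to 17.5. Further values were 5.62 CPM of Cyp2c44 in replicate 3 of day 0 (others 4.18 to 4.31), 23.1 CPM of Cyp27b1 in replicate 1 of day 1 (others 2.77 to 6.27), 1.5 CPM of Cyp2u1 in replicate 2 of day 1 (others 0.885 to 1.02) and 12 CPM of Cyp3a13 in replicate 5 of day 3 (others 1.86 to 4.57).

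The difference by file number format had opposite signs at days 1 and 3 in 4 of the 10 genes, with every library of a format on the same side, lower with 3 digits at day 1 and higher at day 3, as in 4.45% of all genes tested. The log2 difference of day 3 minus that of day 1 was 6.44 for Cyp2d26, 4.27 for Cyp2j5, 3.77 for Cyp2e1 and 1.88 for Cyp4a12a, and these were not tested. Among the other Cyp genes named, the interaction in edgeR, chosen after the data were seen, gave 4.76 for Cyp2j11 (adjusted p = 0.0019), 4.18 for Cyp2j13 (edgeR adjusted p = 0.00039), 3.99 for Cyp2c44 (edgeR adjusted p = 0.033) and 1.93 for Cyp51 (edgeR adjusted p = 0.029). The day 3 format difference of Cyp2c44, 2.53, was 1.42 without replicate 2 of day 3 and 4.81 without replicate 4. The interaction gave -3.35 for Cyp4a32 (edgeR adjusted p = 0.017), -2.26 for Cyp2a5 (edgeR adjusted p = 0.026), -1.63 for Cyp4a31 (edgeR adjusted p = 0.013) and -1.19 for Cyp2s1 (edgeR adjusted p = 0.043).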

How the results depend on the processing

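No fold change of the 10 genes that was called in the main fit changed sign under the alternatives run, while some that were not called did. With the 1-digit and the 3-digit libraries, day 3 against day 1 was -4.09 and 2.36 for Cyp2d26 and -3.17 and 0.61 for Cyp2e1. Of the values of the 10 genes, 1149 moved by less than their spread within the groups compared and 41 by more. For contrasts of days, that spread takes in the split by format, so a value counted as moving by less can still change sign. Of the other Cyp genes named, 692 kept their side of the threshold, 65 lost it and 2 reversed, both of Cyp4a32 in the unstranded column, at -0.25 for day 3 against day 0 (edgeR adjusted p = 0.43) and -0.10 for the formats of day 1 (edgeR adjusted p = 0.81). Of the 36 other Cyp genes, the 12 called at day 1 became 7 with at least 10 counts required and 22 with the 3-digit libraries only, and the 24 at day 3 became 14 with at least 10 counts. The 6 called between days 3 and 1 became 13 with DESeq2, 2 with only the groups compared and 21 with the 1-digit libraries only. The 7 called by format at day 3 became 1 with only the groups compared. Leaving out each library in turn gave 9 to 16 at day 1, 20 to 25 at day 3, 4 to 11 between days 3 and 1 (11 without day 3 replicate 2), 7 to 14 for the formats of day 1 (7 without day 1 replicate 2, 8 without replicate 1) and 1 to 13 for those of day 3 (13 without day 3 replicate 1, 4 without replicate 3 or 4, 1 without replicate 5). The causes were not tested. Replicate numbers did not pair the libraries: 4 of 13 same-numbered pairs had r over 0.1 (-0.175 to 0.261) and 4 of 14 libraries correlated best with their own number. With the replicate block, the 13 other Cyp genes called by format at day 1 became 7 and the 7 at day 3 became 0, with 13 and 24 called at days 1 and 3 against day 0 and 7 between them. At both days 1 and 3, replicates 1 and 2 had 3 digits and replicates 4 and 5 had 1 digit. The block and the format thus largely coincide within these days, and nothing is read from the loss of calls by format. Scaling to total counts without TMM moved the median of all genes by 0.14 at day 3 against day 0, 0.16 between days 3 and 1 and 0.21 for the formats of day 1. Among the list counts, 1907 stayed within 1.5 times and 449 did not. With single libraries left out, the list totals against day 0 at day 3 ran from 1 to 5 for S1 and S2 markers (3 called), 1 to 4 for P450 regulators (2 called), 0 to 2 for mitochondrial donors (1 called), 0 to 1 for urothelium (1 called), 1 to 2 for AHR targets, hepatocyte and adrenal markers (2 called each) and 0 to 1 for adipocyte markers, epoxide hydrolases and endothelium (0 called each), and those at day 1 from 1 to 4 for fibroblast markers (2 called), 2 to 4 for endothelium (2 called), 1 to 2 for AHR targets and smooth muscle (2 called each), 1 to 2 for hepatocyte markers (1 called), 0 to 2 for adipocyte markers (0 called), 0 to 1 for androgen-dependent genes (1 called) and 0 to 1 for urothelium, epoxide hydrolases and mitochondrial donors (0 called each).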
